A study of Mus musculus with 6 samples.

Results

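Immediate early genes are switched on within minutes of a stimulus, from transcription factors that already sit in the cell, and most of their messages are short-lived. The 10 described here, Fos, Fosb, Jun, Junb, Jund, Egr1, Klf6, Ier2, Dusp1 and Zfp36, were chosen by name for that property or for their membership of AP-1. The choice was made with earlier results of these data known. They are 10 of the 55421 genes in the count table, and all 10 were among the 18375 genes abundant enough to be tested. Bulk RNA sequencing compared leukemia cells with and without Ddit4, a stress-induced inhibitor of mTORC1 signaling, to ask what the loss of the gene does to their transcriptome. There were 3 AE9a-Ddit4+/+ libraries (called wild type here) and 3 AE9a-Ddit4-/- libraries (called knockout here), numbered 1 to 3 in each group.

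Both groups were C57BL/6 and both carried AE9a, a truncated form of the AML1-ETO fusion protein of acute myeloid leukemia. In the study's model, AE9a was put by retrovirus into c-Kit+ stem and progenitor cells of Ddit4+/+ or Ddit4-/- marrow, and GFP+ cells were grown in irradiated recipients. Donor mice were 6 to 8 weeks old, and the part of Ddit4 that the allele removes is not given in the sources used here. The sequenced cells came from the marrow of transplanted mice, with 3 samples in each group, and the labels also name a culture medium for maintaining them. Whether each sample was a separate mouse or a separate leukemia is not spelled out, so the p-values below measure the spread between these libraries, which may be partly technical. The study reports leukemia in most primary recipients of Ddit4+/+ cells but in few recipients of Ddit4-/- cells. The knockout libraries may therefore come from few independent leukemias, and their spread may be smaller for that reason, which was not tested. Values are CPM (counts per 1000000 counts, after the TMM scaling of edgeR) unless another scale is named, a difference is past the threshold where the quasi-likelihood test of edgeR, run over all genes tested, gave a Benjamini-Hochberg adjusted p under 0.05, and log2 fold changes are knockout over wild type with their standard error (SE).

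Ddit4 itself stood at 228, 161 and 342 CPM in wild type libraries 1 to 3 and at 84.9, 77.7 and 85.9 CPM in knockout libraries 1 to 3. It fell by 1.56 on the log2 scale (SE 0.28, edgeR adjusted p = 0.00635), and the remaining reads cannot be placed inside or outside the deleted part. At the protein level, the study reports by western blot that AE9a-Ddit4-/- leukemia cells had no DDIT4. Library totals ran from 62141558 to 72717681 counts and did not separate the groups (exact permutation test, two-sided, p = 0.5, 3 against 3). The libraries also differed between genotypes in ways that move with every comparison below. Xist, expressed from the inactive X chromosome of female cells, ranged from 566 to 1032 CPM in wild type and from 20.3 to 129 CPM in knockout, while the Y-linked Ddx3y stood between 88.2 and 125 CPM in knockout and at no more than 5 counts in wild type. Genotype and the sex of the cells thus cannot be told apart. The knockout libraries held Xist as well as Ddx3y, and whether they mix cells of both sexes was not tested. The mitochondrial share of counts was 6.17% ± 1.52 (SD, n = 3) in wild type and 13.3% ± 2.75 (SD, n = 3) in knockout (exact permutation p = 0.1, the smallest that 3 against 3 allows). The number of genes detected separated the groups as well, with 21097 to 21892 in wild type and 22877 to 23771 in knockout (exact permutation p = 0.1). In bulk RNA, fewer cells of a type and less RNA per cell cannot be told apart either.

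As background, AP-1 is a pair of basic leucine zipper proteins, either a Jun protein with a Fos protein or a pair of Jun proteins, and it binds DNA at the AP-1 site. Stimuli reach the Fos and Egr1 promoters mainly through ERK and p38 kinases, which act on ternary complex factors and serum response factor at the CArG box, and through CREB at the cyclic AMP response element. Jun is activated by JNK, and feedback comes from Dusp1, which dephosphorylates p38 and JNK, and from Zfp36, which leads AU-rich messages to decay. In blood cells the same genes also respond to enzymatic dissociation, sorting and other handling.

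The proximal promoters of 4 members are shown because Fosb and Junb rose in the knockout libraries, Fos showed the largest spread in the wild type ones, and Dusp1 holds the single full cyclic AMP response element found among the members. Each run is 200 bases of the mouse GRCm38.p6 reference from RefSeq, on the gene's strand from 250 to 51 bases before the RefSeq start. Fos lies at chr12:85473640-85473839 (plus strand), Fosb at chr7:19310096-19310295 (minus), Junb at chr8:84978799-84978998 (minus) and Dusp1 at chr17:26508523-26508722 (minus). Capitals mark TGACG, a shortened form of the cyclic AMP response element, and in Dusp1 the full element TGACGTCA, with which 2 of the short matches overlap.
Fosb: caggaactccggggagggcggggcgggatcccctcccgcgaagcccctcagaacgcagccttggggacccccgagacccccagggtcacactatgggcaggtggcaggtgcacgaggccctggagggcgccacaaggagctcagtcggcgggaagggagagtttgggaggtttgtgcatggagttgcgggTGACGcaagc
Junb: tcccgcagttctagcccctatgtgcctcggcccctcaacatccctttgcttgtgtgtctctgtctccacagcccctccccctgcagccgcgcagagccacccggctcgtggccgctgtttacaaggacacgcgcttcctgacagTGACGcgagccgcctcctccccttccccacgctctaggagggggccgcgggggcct
Fos: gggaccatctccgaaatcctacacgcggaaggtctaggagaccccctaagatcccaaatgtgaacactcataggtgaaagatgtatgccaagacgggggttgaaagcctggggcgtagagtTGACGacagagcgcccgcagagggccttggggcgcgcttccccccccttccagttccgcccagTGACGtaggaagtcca
Dusp1: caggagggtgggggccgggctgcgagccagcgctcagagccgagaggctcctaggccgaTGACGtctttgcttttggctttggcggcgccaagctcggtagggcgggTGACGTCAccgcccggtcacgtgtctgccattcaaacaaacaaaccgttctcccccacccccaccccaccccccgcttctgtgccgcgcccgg

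Motifs were searched on both strands in windows of 300 bases, 250 before to 50 after the start. RefSeq windows were matched for 8 of the 10 members, all but Egr1 and Ier2. TGACG was found in Fos, with first bases at -129 and -66 from the start, in Fosb at -60, in Junb at -106 and in Dusp1 at -191, -143 and -140. It was not found in the windows of Jun, Jund, Klf6 or Zfp36, and 20.8% of all 32851 promoter windows hold it. RefSeq and GENCODE place some starts differently, so that the Jund window lies upstream of the gene span given below and the Zfp36 and Dusp1 windows lie inside theirs. The full TGACGTCA occurs in 1.79% of all windows and, among the members, in Dusp1. The CArG box, CC and GG around 6 bases of A or T, occurs in 1.63% of all windows and, among the members, in Zfp36, where CCATAAAAGG starts at -58. Bases further than 250 upstream of the start were not searched, so a missing match does not show that Fos or another member lacks the element. None of the 8 windows holds the AP-1 site TGACTCA or TGAGTCA, which 5.20% of all windows hold. This short motif was added to the search after the sequences had been seen, and a match is a description of letters, not of binding.

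Of the 10 genes, Junb and Fosb rose in the knockout libraries, by 3.09-fold and 2.03-fold, and none fell. That is 20.0% of the members, beside 19.4% of all genes tested that were higher, 10.7% that were lower and 30.1% that were called in either direction. The share is close to that background, so the count alone does not set these genes apart from the rest. In 5 members, Fosb, Junb, Egr1, Zfp36 and Ier2, every knockout library was above every wild type library, as in 27.9% of all genes tested, and in the other 5 the groups overlapped. No member had every knockout library below every wild type library, as 22.2% of all genes tested had, and the groups did not overlap in either direction in 50.1%. The median log2 fold change was 0.92 over the 10 members and 0.04 over all genes tested, and 7 of the 10 estimates were positive. Together the members took 0.487%, 1.43% and 1.33% of the counts of wild type libraries 1 to 3 and 1.84%, 1.26% and 1.77% of those of knockout libraries 1 to 3. Wild type library 1 was the lowest of the 6, and the other 5 libraries overlapped between the groups.

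**Figure D1:**
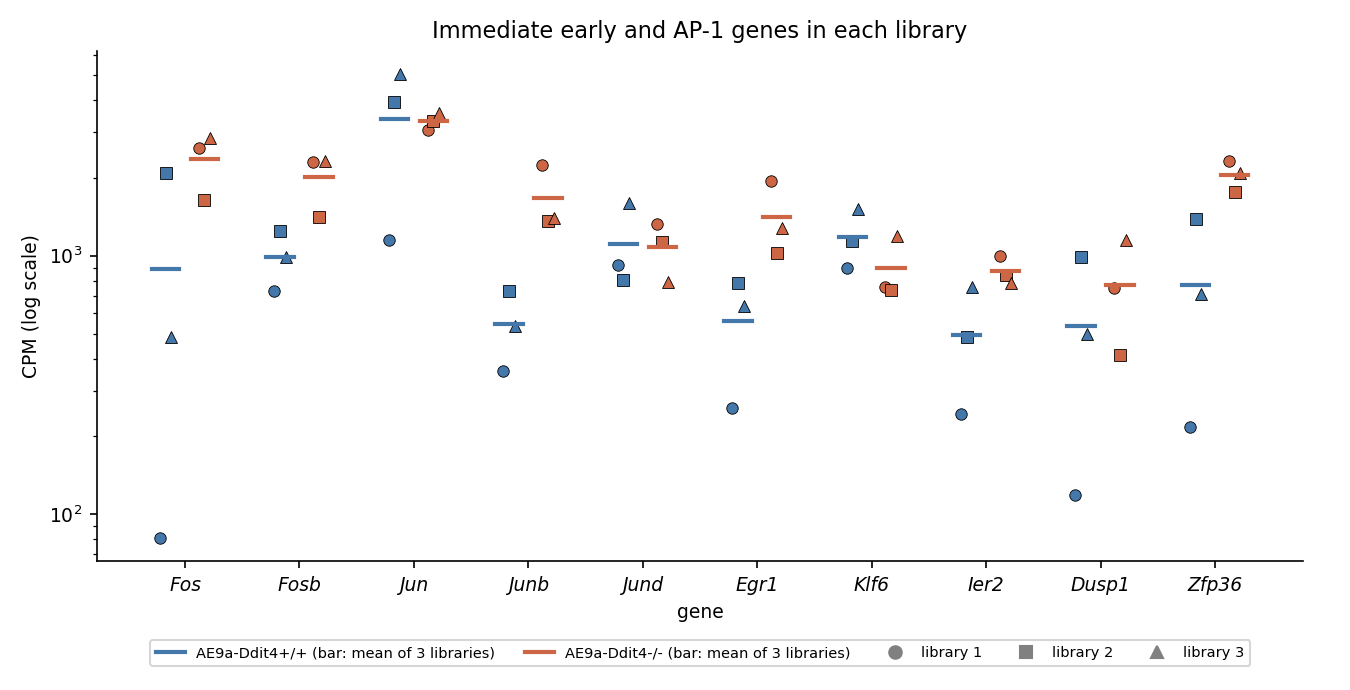
CPM (log axis) of the 10 genes in each of the 6 libraries, with marker shape for the library number, colour for the genotype and a bar for the mean of 3 libraries. Wild type library 1 (blue circle) is the lowest point for 8 of the 10 genes, and the knockout points lie above all wild type points for Fosb, Junb, Egr1, Zfp36 and Ier2.

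Fos (ENSMUSG00000021250, chr12:85473890-85477273), the inducible partner of Jun proteins, was the most uneven member. It stood at 80.7, 2096 and 486 CPM in wild type libraries 1 to 3 and at 2616, 1645 and 2864 CPM in knockout libraries 1 to 3. Wild type library 2 lay inside the knockout range while library 1 was far below every other library, so the groups overlapped. The highest wild type library was 26.0 times the lowest, against 1.74 times among the knockout libraries. With an SE of 0.94, its log2 fold change of 1.42 did not pass the threshold (edgeR adjusted p = 0.291). Without wild type library 2 it was 3.07 (edgeR adjusted p = 0.0244), and without wild type library 1 it was 0.88 (edgeR adjusted p = 0.343).

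Fosb (ENSMUSG00000003545, chr7:19302696-19310051), a Fos family member whose short splice form is long-lived, was steadier. It stood at 731, 1245 and 992 CPM in wild type libraries 1 to 3 and at 2302, 1411 and 2322 CPM in knockout libraries 1 to 3. Each knockout library was above each wild type library, with knockout library 2 closest to wild type library 2. Fosb rose by 1.02 on the log2 scale (SE 0.28, edgeR adjusted p = 0.0300). The call was lost, with the same direction, without wild type library 1 (adjusted p = 0.0869 in edgeR), wild type library 3 (0.0887), knockout library 1 (0.0927) or knockout library 3 (0.0991). A count per gene does not separate the splice forms.

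Jun (ENSMUSG00000052684, chr4:95049034-95052222), the main activating subunit of AP-1, had the highest mean level of the members in both groups per kilobase of merged exons. Its level was 1146, 3942 and 5053 CPM in wild type libraries 1 to 3 and 3070, 3326 and 3581 CPM in knockout libraries 1 to 3. The wild type libraries lay on either side of the narrow knockout range. The estimate for Jun was -0.02 on the log2 scale (SE 0.47, adjusted p = 0.975 in edgeR), and its sign turned with the library left out, from -0.44 without wild type library 1 to 0.38 without wild type library 3.

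Junb (ENSMUSG00000052837, chr8:84974484-84978718) forms weaker activating dimers than Jun and limits the growth of myeloid cells. It was at 358, 732 and 535 CPM in wild type libraries 1 to 3 and at 2252, 1368 and 1403 CPM in knockout libraries 1 to 3. Each knockout library was above each wild type library, and the lowest knockout library was well clear of the highest wild type one. Junb rose by 1.63 on the log2 scale (SE 0.32, edgeR adjusted p = 0.00906), the largest estimate among the members, and passed the threshold with each library left out in turn (edgeR adjusted p from 0.00720 to 0.0368). It shares 173 exon bases with Prdx2, a peroxiredoxin gene on the other strand, and whether the counting used strand is not given. Prdx2 had 19287, 7866 and 13636 counts in wild type libraries 1 to 3 and 3089, 4079 and 4484 in knockout libraries 1 to 3, the opposite direction to Junb.

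Jund (ENSMUSG00000071076, chr8:70698949-70700616), the Jun protein that is made constitutively in most cells, stood at 922, 808 and 1594 CPM in wild type libraries 1 to 3 and at 1330, 1132 and 792 CPM in knockout libraries 1 to 3. The groups overlapped throughout. On the log2 scale the difference was -0.03 (SE 0.31, adjusted p = 0.952 in edgeR), and it ran from -0.21 without wild type library 2 to 0.32 without wild type library 3.

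**Figure D2:**
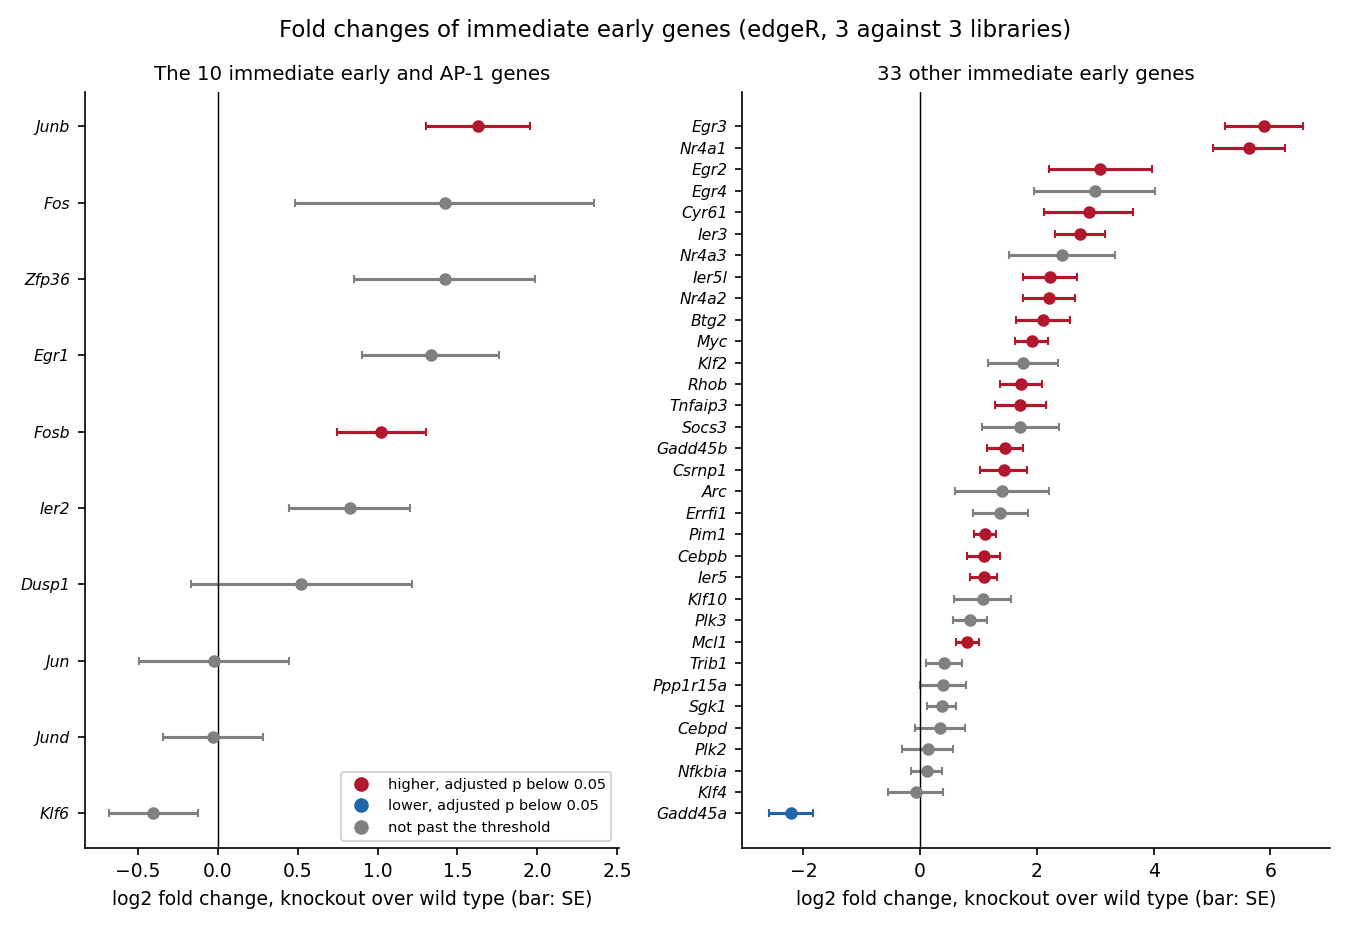
Log2 fold change, knockout over wild type, with its SE for the 10 members (left) and 33 other immediate early genes (right, on a wider axis), from the same edgeR fit over 3 against 3 libraries. Red points were higher and blue points lower past the threshold, among them Junb at 1.63 and Fosb at 1.02 on the left and Egr3 at 5.89, Nr4a1 at 5.63 and Gadd45a at -2.21 on the right.

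Levels of different genes were compared as CPM per kilobase of exon, with exons merged over all transcripts. In wild type the order of means ran from Jun (1060 CPM per kilobase) through Jund (664), Fos (377), Ier2 (325), Klf6 (270), Junb (235), Zfp36 (222), Dusp1 (162) and Fosb (158) to Egr1 (125). The ranges of each pair of neighbours in that order overlapped, with Fos alone covering 34.3 to 891 CPM per kilobase. In knockout the order of means was Jun (1043), Fos (1010), Junb (728), Jund (650), Zfp36 (594), Ier2 (575), Fosb (322), Egr1 (315), Dusp1 (233) and Klf6 (204). Neighbours overlapped here too, except that Ier2 (517 to 654) was clear of Fosb (226 to 372). Junb was at rank 6 in wild type and rank 3 in knockout, and the order depended in part on the lengths used. With principal transcript lengths Junb (300) was above Klf6 (280) in wild type, at rank 5, and in knockout Fos (1127) was above Jun (1043), Zfp36 (738) above Jund (650) and Dusp1 (387) above Egr1 (315).

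Within the Jun family, the share of Junb in the summed level per kilobase was 14.6%, 15.6% and 8.38% in wild type libraries 1 to 3 and 35.7%, 25.7% and 27.6% in knockout libraries 1 to 3. All knockout libraries were above all wild type libraries, also with the lengths of the principal transcripts (10.4% to 19.1% against 30.5% to 41.4%), and an exact test of 3 against 3 cannot go below 0.1. Jun took 33.7%, 60.6% and 57.2% in wild type and 35.2%, 45.0% and 50.9% in knockout, and Jund took the rest, with overlapping groups for both. Within the Fos family, the share of Fos was 20.8%, 80.9% and 54.4% in wild type libraries 1 to 3 and 73.0%, 74.1% and 75.9% in knockout libraries 1 to 3. Fosb made up 71.1% of the family in wild type library 1, the library with the least Fos, against 18.1% and 41.8% in wild type libraries 2 and 3 and 23.2% to 24.2% in knockout. The knockout libraries thus had nearly equal Fos family make-up and the wild type libraries had not. With principal transcript lengths the leading gene of wild type library 3 turned from Fos (54.4%) to Fosb (51.2%). Fosl2 took no more than 6.92% and Fosl1 no more than 1.12% of the family in any library.

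**Figure D3:**
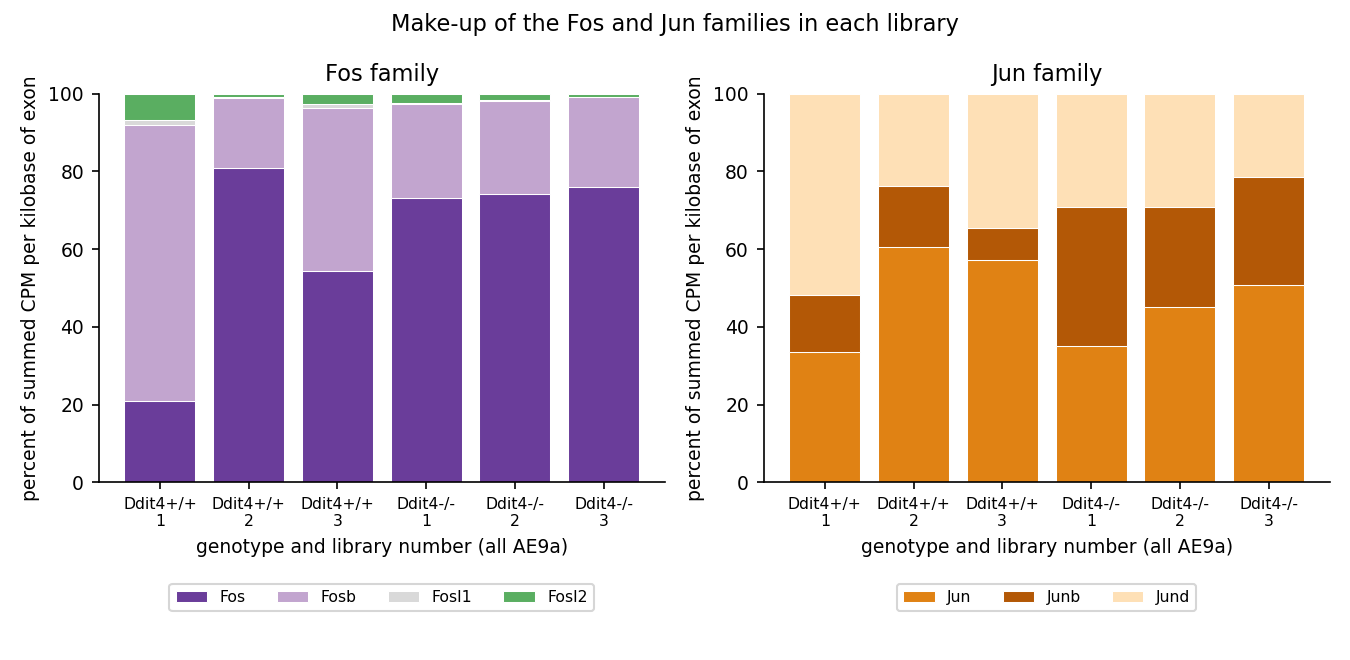
Share of each gene (percent of summed CPM per kilobase of exon) in the Fos family (left) and the Jun family (right), 1 bar per library. Junb takes 8.38% to 15.6% of the Jun family in wild type and 25.7% to 35.7% in knockout, and Fos takes 20.8% of the Fos family in wild type library 1 against 73.0% to 75.9% in the knockout libraries.

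Egr1 (ENSMUSG00000038418), a zinc finger factor that couples growth signals to transcription and keeps blood stem cells quiescent, was at 257, 788 and 637 CPM in wild type libraries 1 to 3 and at 1941, 1020 and 1276 CPM in knockout libraries 1 to 3. Every knockout library was above every wild type library. Its log2 fold change of 1.33 (SE 0.43) lay just outside the threshold (edgeR adjusted p = 0.0520), and it passed without wild type library 2 (1.66, edgeR adjusted p = 0.0350). With all 6 libraries it also passed with RLE factors (adjusted p = 0.0483 in edgeR), with at least 10 counts in every library (0.0421), with counts divided by 4 (0.0403), in limma-voom (0.0313) and in DESeq2 (0.0109). It did not pass in edgeR without mitochondrial genes (adjusted p = 0.0511), without a filter (0.0560), with library totals alone (0.0712) or with the replicate number as a block (0.139). Leaving out any library other than wild type library 2 did not bring it past either (edgeR adjusted p from 0.0655 to 0.161).

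Klf6 (ENSMUSG00000000078, chr13:5861482-5870394), a zinc finger factor of the Krüppel-like family, was the member with the most negative estimate. It was at 897, 1140 and 1518 CPM in wild type libraries 1 to 3 and at 757, 736 and 1196 CPM in knockout libraries 1 to 3, with overlapping groups. Its difference of -0.40 on the log2 scale (SE 0.28) did not pass (adjusted p = 0.312 in edgeR).

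Ier2 (ENSMUSG00000053560, chr8:84661331-84662852), a small nuclear immediate early protein, was at 245, 483 and 754 CPM in wild type libraries 1 to 3 and at 996, 841 and 787 CPM in knockout libraries 1 to 3. The groups did not overlap, but knockout library 3 was barely above wild type library 3. Ier2 differed by 0.82 on the log2 scale (SE 0.38), short of the threshold (adjusted p = 0.138 in edgeR), and it passed without wild type library 3 (1.26, edgeR adjusted p = 0.0437). With any other library left out it did not pass (edgeR adjusted p from 0.212 to 0.293).

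Dusp1 (ENSMUSG00000024190, chr17:26505590-26562128), the phosphatase that ends p38 and JNK signals, had 119, 992 and 497 CPM in wild type libraries 1 to 3 and 748, 413 and 1149 CPM in knockout libraries 1 to 3. Knockout library 2 was below wild type libraries 2 and 3, and the groups overlapped. For Dusp1 the log2 fold change of 0.52 (SE 0.69, adjusted p = 0.602 in edgeR) was 0.05 without wild type library 1, 1.32 without wild type library 2 and 0.06 without knockout library 3, none of them past the threshold. The annotated gene shares 11 exon bases with Ergic1 on the other strand.

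Zfp36 (ENSMUSG00000044786, chr7:28376784-28380253), the tristetraprolin gene, had 218, 1384 and 709 CPM in wild type libraries 1 to 3 and 2322, 1768 and 2090 CPM in knockout libraries 1 to 3. Every knockout library was above every wild type library, and the knockout libraries were within 1.31-fold of each other against 6.35-fold in wild type. Zfp36 differed by 1.42 on the log2 scale (SE 0.57) and missed the threshold (adjusted p = 0.0988 in edgeR), and without wild type library 2 it was 2.15 (edgeR adjusted p = 0.0196). Fos and Zfp36 thus had the same estimate with different spread. With all 6 libraries Zfp36 passed in DESeq2 (adjusted p = 0.0335) and limma-voom (0.0404), but under no edgeR alternative (0.0798 to 0.124). With any library other than wild type library 2 left out it did not pass (edgeR adjusted p from 0.0826 to 0.221).

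Most members were more uneven between the wild type libraries than between the knockout ones. The SD of log2 CPM over 3 libraries had a median of 0.84 over the members in wild type and 0.40 in knockout, and 8 of the 10 members were more spread in wild type, all but Fosb and Klf6. Over the 2210 genes with a mean of at least 100 CPM the medians were 0.26 and 0.25, and 51.5% of those genes were more spread in wild type. The SD of Fos in wild type was 2.35, a value that 0.0452% of those 2210 genes reached, with Fos itself counted among them. For Dusp1 (SD 1.56), Zfp36 (1.35) and Jun (1.15) the shares, again with the members counted, were 0.271%, 0.452% and 1.04%. At the other end, Jun (SD 0.11), Ier2 (0.17) and Zfp36 (0.20) were among the steadier abundant genes in knockout, with 84.4%, 68.5% and 62.1% of the 2210 genes at least as spread.

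The wild type libraries differed in the same order for most members. Library 1 was lowest, library 3 was intermediate and library 2 was highest within the group for Fos, Fosb, Junb, Egr1, Dusp1 and Zfp36, which is 6 of 10 members beside 18.0% of all genes tested. Jun, Klf6 and Ier2 instead peaked in library 3, as did Jund. Wild type library 1 was the lowest of all 6 libraries for 8 of 10 members, all but Jund and Klf6, beside 21.1% of all genes tested and 10.5% of the 2210 abundant ones. In the pathway lists described below it was lowest for 16 of 33 other immediate early genes, 7 of 11 messages bound by Zfp36 and 4 of 12 serum response factor, ternary complex and CREB genes. It was lowest for 3 of 25 kinases and Ras genes and 1 of 14 other AP-1 family genes. The numbers were 0 of 14 feedback inhibitors of MAP kinase signaling and Zfp36 relatives, 0 of 12 AP-1 targets and 0 of 12 heat shock genes. Its total of 64477370 counts and its mitochondrial share of 5.58% were inside the range of the other wild type libraries, while its 21097 detected genes were the fewest of the 6 libraries. Its summed markers were the highest of the wild type group for erythroid cells (16165 CPM against 7606 and 13907), T and NK cells (83.0 against 10.9 and 16.9) and B cells (139 against 36.3 and 7.81), and the part of these differences in its low member levels was not tested.

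**Figure D4:**
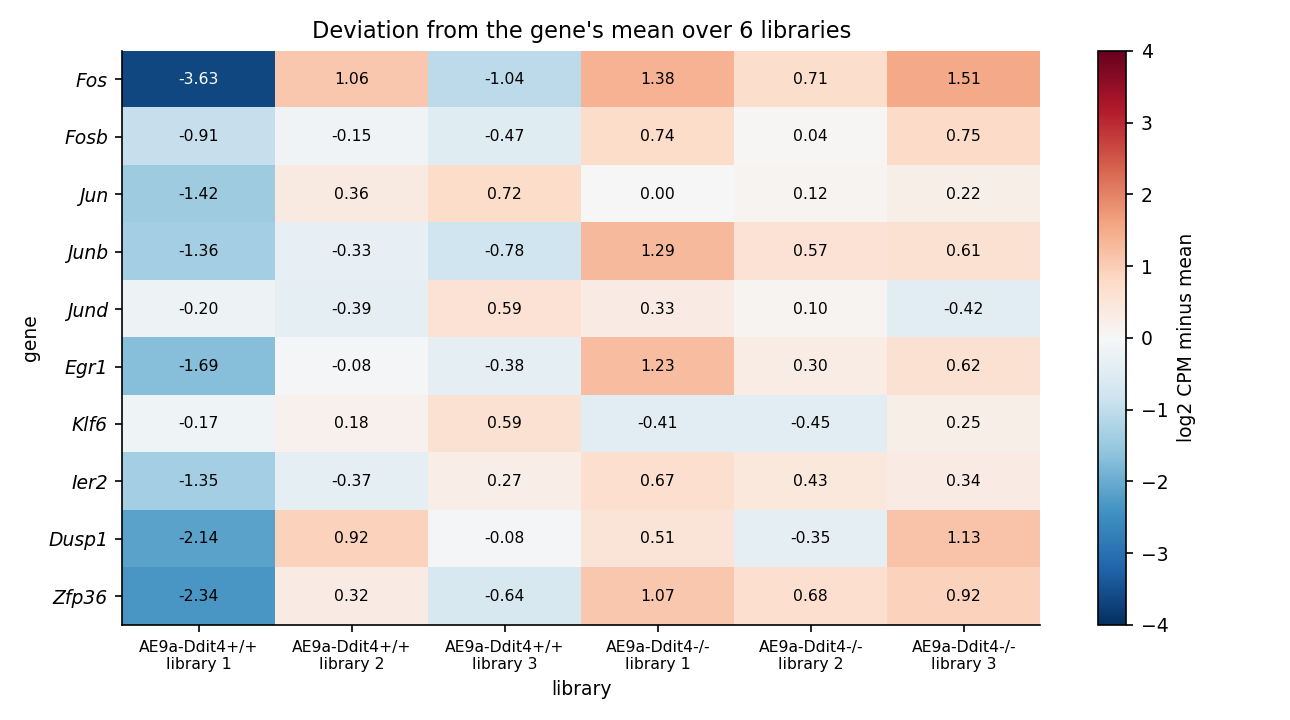
Log2 CPM of each member in each library minus the member's mean over the 6 libraries (log2 units, red above and blue below the mean). The first column, wild type library 1, is blue for all 10 genes, deepest for Fos at -3.63, Zfp36 at -2.34 and Dusp1 at -2.14, while Jund and Klf6 stand there at -0.20 and -0.17.

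Members differed in how closely their levels tracked Fos across libraries. Over the 6 libraries, Pearson's r of log2 CPM with Fos was 0.987 for Zfp36, 0.929 for Egr1, 0.921 for Dusp1, 0.879 for Fosb, 0.855 for Junb, 0.797 for Ier2 and 0.703 for Jun, against -0.08 for Klf6 and -0.10 for Jund. Of the 14268 genes compared, Zfp36 ranked 9, Egr1 126, Dusp1 170, Fosb 400 and Junb 555, while Ier2 and Jun ranked 1034 and 2134. The genes closest to Fos were the chemokine gene Ccl3 (r = 0.998), Dram2 (0.994), Aldh16a1 (0.994), Tnpo1 (0.993) and Itpripl2 (0.992). Ccl3 was at 6.14, 97.8 and 30.7 CPM in wild type libraries 1 to 3 and at 126, 70.7 and 130.3 CPM in knockout libraries 1 to 3. The values rest on 6 points that include 1 very low library and the genotype difference, so they are given as a description.

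**Figure D5:**
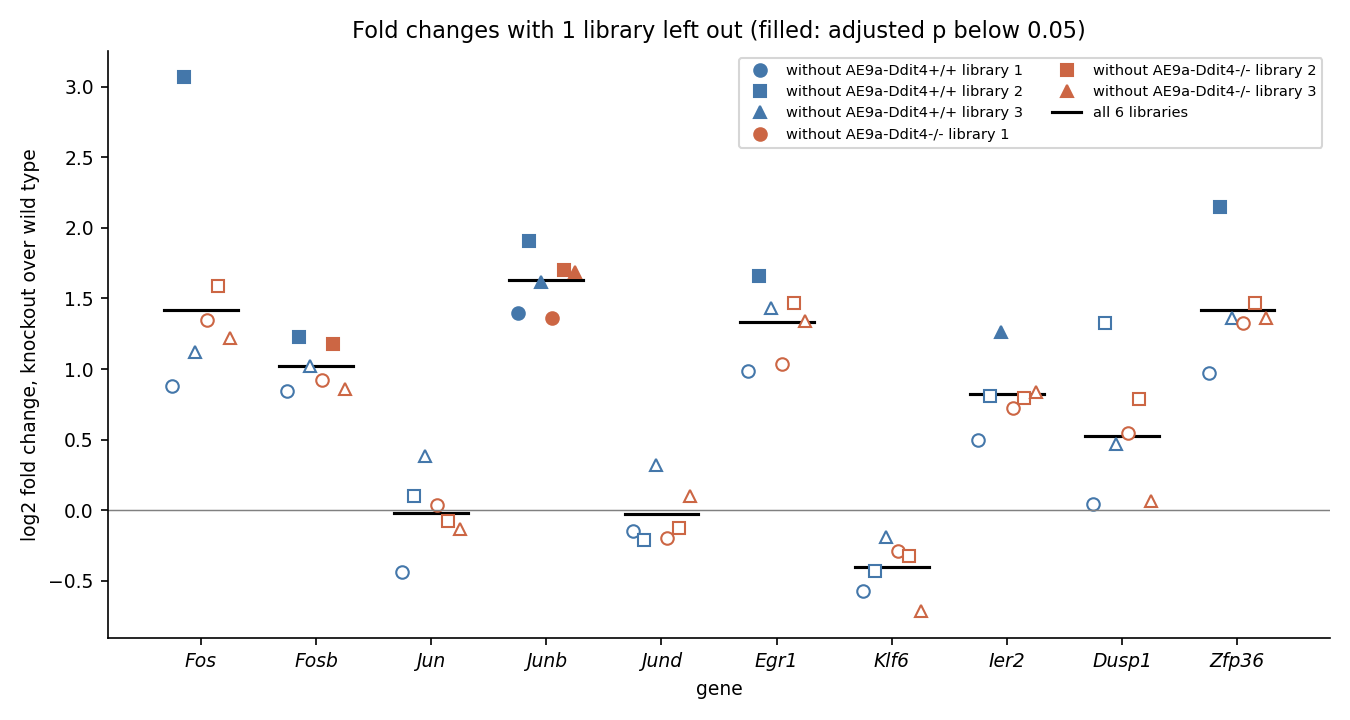
Log2 fold change of each member with all 6 libraries (black line) and with 1 library left out (points, colour and shape for the library left out, filled where the edgeR adjusted p is below 0.05). Junb stays filled throughout, between 1.36 and 1.91, Fos moves from 0.88 to 3.07, and Jun and Jund lie on both sides of 0.

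Leaving out wild type library 2 brought 5 members past the threshold (Fos, Fosb, Junb, Egr1 and Zfp36), and leaving out wild type library 3 gave Junb and Ier2, whereas leaving out wild type library 1, knockout library 1 or knockout library 3 left Junb alone. No library was removed for the values above, and both wild type library 1 and wild type library 2 belong to the group by their labels.

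Other genes were followed through lists of pathway members. Like the members, these lists were chosen with earlier results of these data known, so their shares are a description and not independent support. Of all genes tested, 19.4% were higher and 10.7% lower. Of 33 other immediate early genes, 17 rose in knockout (51.5%) and 1 fell, with a median log2 fold change of 1.43, or 1.40 with Egr4 at the bound its wild type counts allow. The orphan nuclear receptor Nr4a1 went from 43.5, 126 and 45.6 CPM in wild type libraries 1 to 3 to 5611, 2925 and 2159 CPM in knockout libraries 1 to 3 (log2 fold change 5.63, SE 0.62, edgeR adjusted p = 0.00105). Egr3 rose by 5.89 on the log2 scale (SE 0.67, edgeR adjusted p = 0.00118), from 0.507 to 1.67 CPM in wild type to 31.5 to 112 CPM in knockout. Egr2 rose by 3.09 (SE 0.88, edgeR adjusted p = 0.0345), a call lost without wild type library 1 or 2 or knockout library 1 or 3 (edgeR adjusted p from 0.0559 to 0.101). Gadd45a, a growth arrest gene, fell by 2.21 on the log2 scale (SE 0.38, edgeR adjusted p = 0.00518).

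Of 14 other AP-1 family basic leucine zipper genes, 5 rose (35.7%) and none fell (median 0.88). Batf, a partner of Jun in lymphoid and myeloid cells, rose by 2.07 on the log2 scale (SE 0.42, edgeR adjusted p = 0.00940), Maf by 2.26 (0.0268) and Maff by 1.69 (0.0347), with edgeR adjusted p in parentheses. The call of Maf was lost without wild type library 2 or 3 or knockout library 1 or 3 (0.0614 to 0.0848), and that of Maff without wild type library 1 or knockout library 1 or 2 (0.0939 to 0.105). The most abundant of the list was Atf3, a stress-induced partner of Jun, with 218 to 635 CPM in wild type and 102 to 257 CPM in knockout (log2 fold change -1.09, edgeR adjusted p = 0.133). Of 12 serum response factor, ternary complex, CREB and coactivator genes, 2 rose (16.7%, beside 19.4% of all genes tested) and none fell (median 0.32). They were Elk3, by 1.81 (edgeR adjusted p = 0.0331), and the coactivator Ep300, by 0.83 (edgeR adjusted p = 0.0178). Both calls were lost without wild type library 1 or 3 or knockout library 1, and that of Elk3 also without knockout library 3 (edgeR adjusted p from 0.0905 to 0.108 for Elk3 and from 0.0512 to 0.0653 for Ep300).

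Of 25 kinases and Ras genes upstream of AP-1, 6 rose and 1 fell (median -0.13). Mapk11, a p38 kinase, had 0.14, 0 and 0 CPM in wild type libraries 1 to 3, at or under a limit of 12 counts, and 50.1, 46.6 and 25.6 CPM in knockout libraries 1 to 3, at least 221-fold higher (edgeR adjusted p = 0.000919). Mapk9, a JNK gene, rose by 1.63 on the log2 scale (edgeR adjusted p = 0.00780) and Rps6ka2 by 1.09 (edgeR adjusted p = 0.0238). The call of Rps6ka2 was lost without wild type library 1 or 3 or knockout library 1 (edgeR adjusted p from 0.0738 to 0.0765).

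Other feedback inhibitors of MAP kinase signaling (Dusp, Spry and Spred genes), listed together with relatives of Zfp36, moved in both directions. Of the 14 genes of this list, 5 rose (35.7%) and 2 fell (14.3%), with a median of 0.55. Dusp2, a nuclear phosphatase of blood cells, went from 11.7, 18.6 and 9.02 CPM in wild type libraries 1 to 3 to 1326, 949 and 879 CPM in knockout libraries 1 to 3 (log2 fold change 6.33, SE 0.38, edgeR adjusted p = 0.000177). Dusp4 rose by 5.63 (SE 0.61) and Dusp5 by 2.54 (SE 0.39), with edgeR adjusted p of 0.000978 and 0.00333. Dusp6, the cytoplasmic ERK phosphatase, fell by 1.90 on the log2 scale (edgeR adjusted p = 0.0115) and Spred2, an inhibitor of growth factor signaling, dropped by 2.56 (edgeR adjusted p = 0.00495). Zfp36l2, the most abundant Zfp36 relative, had 662 to 753 CPM in wild type and 836 to 1243 CPM in knockout (log2 fold change 0.59, edgeR adjusted p = 0.0623).

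Messages known to be bound by Zfp36 were tested for 11 of 12 genes, and 4 rose (36.4%) while none fell (median 1.30). They include Il10, by 5.60 on the log2 scale (edgeR adjusted p = 0.000971), Ptgs2, by 4.56 (edgeR adjusted p = 0.00304), and Ccl4, by 2.44 (edgeR adjusted p = 0.0275). Il10 had only 30, 34 and 12 counts in wild type libraries 1 to 3, near the limit of 12 counts, so the size of its rise is uncertain. The call of Ccl4 was lost without knockout library 1 or knockout library 3 (edgeR adjusted p from 0.0731 to 0.0823). Cxcl2, the most abundant, was at 6.77, 153 and 45.4 CPM in wild type libraries 1 to 3 and 420, 101 and 83.6 CPM in knockout libraries 1 to 3 (edgeR adjusted p = 0.298), with wild type library 1 again the lowest. Of 12 textbook AP-1 targets, 3 rose (median -0.31): Mmp13 by 2.36 on the log2 scale (edgeR adjusted p = 0.0327), Ccnd1, which encodes cyclin D1, by 2.16 (edgeR adjusted p = 0.0197), and Hmox1 by 1.38 (edgeR adjusted p = 0.0351). Each of these calls depended on the libraries included, and Mmp13 had only 36, 32 and 10 counts in wild type libraries 1 to 3. Leaving out any library but knockout library 3 lost Mmp13 (edgeR adjusted p up to 0.0944), leaving out wild type or knockout library 3 lost Ccnd1 (up to 0.0700), and leaving out library 1 or 3 of either group lost Hmox1 (up to 0.113). Vim, the most abundant of them, had overlapping groups (edgeR adjusted p = 0.185). Of 12 heat shock genes, which respond to protein damage, 1 rose (8.33%) and 2 fell (16.7%), with a median of -0.86. Hspb1 rose by 2.83, Hsph1 fell by 3.91 and Bag3 fell by 2.08 on the log2 scale (edgeR adjusted p = 0.00303, 0.00368 and 0.00503). The most abundant one, Hsp90ab1, gave a log2 fold change of -0.88 (edgeR adjusted p = 0.0639).

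Markers of cell types also moved with genotype, and immediate early genes can be induced in many of these cells. Kit, the progenitor marker of this leukemia, and the pan-leukocyte marker Ptprc were detected in all libraries and both rose, with a summed level of 75.3 to 202 CPM in wild type and 757 to 1175 CPM in knockout. Erythroid markers summed to 7606 to 16165 CPM in wild type and 372 to 929 CPM in knockout (10 of 10 fell, Hbb-bs the most abundant), and neutrophil markers to 7432 to 12004 and 1544 to 5110 CPM (5 of 11 fell, with Ngp most abundant). Monocyte and macrophage markers overlapped, at 690 to 1114 and 330 to 1197 CPM (1 of 9 rose, and the most abundant was Lyz2). Higher in knockout were the megakaryocyte and platelet markers, at 106 to 171 against 2290 to 3045 CPM (7 of 9 rose and 1 fell, Itga2b the most abundant), and the B cell markers, at 7.81 to 139 against 387 to 953 CPM (5 of the 7 tested rose, Ighm the most abundant). The T and NK cell markers summed to 10.9 to 83.0 against 86.9 to 120 CPM (8 of 10 rose, Nkg7 the most abundant), and stroma and endothelium markers to 6.98 to 12.4 against 322 to 334 CPM (6 of 10 rose, Pdgfrb the most abundant). Klrb1c and Ms4a1 were at 0 in all wild type libraries. The part of cell make-up and of the mitochondrial share in the values of Junb, Fosb and the other members was not tested.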

How the data were processed

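RNA of 6 leukemia samples was sequenced as paired-end reads of 150 bp. The labels name a dual-mode mRNA kit and the study's methods an rRNA-depleted directional kit, and this was not settled. The authors deposited 1 table of whole-number counts per gene, with 1 column per library and no normalization. Builds GRCm38 and mm10 are named in the submitters' processing notes. The aligner, the counter, its annotation and its use of strand are not given in the sources used here. Low counts piled up at multiples of 4, so 12 counts served as the limit of detection (0.163 to 0.197 CPM).

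Of the identifiers, 99.7% were found in GENCODE M21 (GRCm38), the source of coordinates and lengths. Counts were tested with edgeR 4.0.16 (R 4.3.3): default low-count filter, TMM factors, quasi-likelihood test of knockout against wild type without covariates, Benjamini-Hochberg adjustment over all genes tested. The code was tested on simulated data. The members and lists were chosen with earlier results of these data known. Named genes are the 10 members, Ddit4, up to 3 genes per pathway list and direction with the largest log2 fold change among non-overlapping calls with a mean of at least 1 CPM in a group, the most abundant gene of each list, and the 5 genes most correlated with Fos among those with at least 10 counts in every library. Kit was named besides these as a defining marker, and Egr4, Fosl1, Fosl2, Prdx2, Ergic1, Klrb1c, Ms4a1, Xist and Ddx3y for the limits they set. Some genes that the rule names are not reported here. Log2 CPM used a pseudocount of 0.5. Alternatives were RLE factors, library totals alone, mitochondrial genes removed, no filter or at least 10 counts in every library, DESeq2 1.42.0, limma-voom 3.58.1, counts divided by 4, the replicate number as a block, each library left out, a threshold of 0.01 and, added after seeing the data, principal transcript lengths and the TGACG motif.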

Additional observations from a re-analysis of the deposited data

How the results depend on the processing

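Over 16 alternatives for each of the 10 members, 133 of 160 fold changes kept both direction and side of the threshold, 11 newly passed, 6 no longer passed and 10 turned sign. Junb passed the 0.05 threshold under every alternative fit, with a highest adjusted p of 0.0485. With 2 members past the threshold as reported, DESeq2 and limma-voom each gave 4, a threshold of 0.01 gave 1, and leaving out 1 library gave 1 to 5. Same-numbered libraries did not vary together (correlations of their deviations from the group means -0.24, -0.28 and -0.04), so they were not treated as pairs. With so few libraries, whether equal numbers shared a preparation could not be tested. With the replicate number as a block in edgeR, 1 member passed (Junb, while Fosb had an adjusted p of 0.0996), and 2964 genes were called, 2177 higher and 787 lower. Without the block the counts were 5535, 3560 and 1975. A threshold of 0.01 gave 2676 genes, 1964 higher and 712 lower, and a minimum of 10 counts in every library gave 2341 higher. Leaving out 1 library gave 3840 to 6021 genes, 2683 to 3943 higher and 1089 to 2078 lower. Jun turned positive with the minimum of 10 counts (0.039), with limma-voom (0.23), with the block (0.21) and without wild type library 2 (0.10), wild type library 3 (0.38) or knockout library 1 (0.036), and was -0.44 to 0.38 over the libraries left out. Jund turned positive with the minimum of 10 counts (0.035), with the block (0.013) and without wild type library 3 (0.32) or knockout library 3 (0.098), and was -0.21 to 0.32. The estimate of Fos was 2.40 in limma-voom and 2.45 in edgeR with the block, against 1.42 as reported. Among other named genes, none turned sign in 671 values, and 61 no longer passed. With principal transcript lengths, Fos and Fosb took on average 66.4% and 31.4% of the Fos family in knockout (74.3% and 23.8% with merged exons), and in wild type their order turned, to 44.8% and 51.0% (52.0% and 43.7%). Each member had at least 5097 counts in every library, well over the limit of detection. Causes of these differences were not tested.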
